A study of Homo sapiens with 39 samples.

Results

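Guides against olfactory receptor (OR) genes form a large set of CRISPR targets that a melanoma cell is not thought to need, and their behaviour was set against that of guides named NO_CURRENT, which carry no gene name. The OR set was found by name in the whole-genome knockout screen: a guide was a member if its gene name began with OR, a number, letters and a number. This gave 1496 guides against 374 genes, 4 guides per gene, of 77441 guides in all. The reference set held 1000 NO_CURRENT guides. Of the 374 gene names, 372 were current symbols and 2 were older names of a single gene in the RefSeq gene table of GRCh38.p14, which lists 369 of them as protein coding and 5 as pseudogenes.

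OR proteins are receptors with membrane-spanning helices that bind odorants, mostly in the neurons of the nose, where each neuron uses a single receptor gene. A bound receptor acts through the G protein subunit encoded by GNAL and the adenylyl cyclase encoded by ADCY3 to open cyclic nucleotide-gated channels. OR genes lie in dense clusters of near copies, and class I receptors, with family numbers in the fifties, are set apart by sequence from the class II receptors. Guide counts hold no measure of expression, so whether A375 cells transcribe any OR gene was not measured here.

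All libraries came from A375, an established line of BRAF-mutant human melanoma cells, after knockout of MED12, a subunit of the Mediator coactivator complex. The controls carried this knockout too. The groups, of 3 libraries each, were day 0, vehicle (DMSO) at days 8 and 14, and vemurafenib (2 µM), which inhibits mutant BRAF, at days 8 and 14. Guides were read by sequencing PCR products of integrated guide cassettes in genomic DNA, without molecular identifiers in the stated protocol, so counting error understates the true error. Library totals ran from 47766947 to 87591804 counts. The labels do not say whether replicates were separate infections or cultures, so p-values measure only the spread between these libraries, which may be technical.

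OR guides began well below the level of the reference guides. At day 0 the median OR guide stood at 11.7, 11.4 and 11.6 CPM (counts per 1000000 counts of the library) in replicates 1, 2 and 3, and the median NO_CURRENT guide at 33.5, 34.2 and 33.7. The groups of guides were thus 2.92 ± 0.07 times apart (SD, n = 3 libraries), with every library alike. Only 3.14% to 4.95% of OR guides exceeded the NO_CURRENT median of their library. In counts, the median OR guide was seen 800 to 880 times and the median NO_CURRENT guide 2396 to 2552 times.

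In starting level the OR guides resembled other guides that aim at genes. The median over the 74945 other targeted guides was 0.897 ± 0.013 times the OR median. Guides against other gene families known for use in few tissues (taste, vomeronasal and trace amine receptors, keratin-associated proteins, defensins, late cornified envelope proteins and the PRAME family; 827 guides) had a median of 12.5 ± 0.2 CPM. Guides against cytosolic ribosomal proteins, which all dividing cells need, stood at 3.57 ± 0.06 CPM.

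OR guides were more unequal among themselves than NO_CURRENT guides, as were targeted guides in general. The level at the 90th percentile was 7.02 to 7.15 times that at the 10th percentile, against 3.31 to 3.63 times for NO_CURRENT guides and 7.60 to 7.99 times for other targeted guides. The 4 guide numbers of a gene had similar day-0 medians, from 10.7 CPM for guide 3 to 12.4 CPM for guide 4. The OR guides too rare to test numbered 5: OR2M2_4, OR2V1_3, OR4F21_4, OR4F29_3 and OR9K2_4, of which OR4F21_4 had 0 counts in all 15 libraries. The other 1491 OR guides and 997 NO_CURRENT guides passed the count filter.

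Relative to the NO_CURRENT guides, OR guides lost ground from day 0 in every library, in DMSO as in vemurafenib. Drift was taken in each library as the median over OR guides of the log2 change from the mean of the day-0 libraries, minus the same median over NO_CURRENT guides. At day 8 in DMSO it was -0.30, -0.42 and -0.39 in replicates 1, 2 and 3. At day 14 in DMSO it reached -0.66, -0.70 and -0.79. The day-14 values all lay below the day-8 values, and the SD of 3 libraries was 0.06 at each time.

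Vemurafenib libraries gave the same order against the same day-0 libraries. Drift was -0.37, -0.42 and -0.36 at day 8 and -0.90, -0.89 and -0.87 at day 14. The day-14 vemurafenib values were all lower than the day-14 DMSO values. Set directly against the mean of the DMSO libraries of the same day, however, vemurafenib gave a drift of 0.02 ± 0.03 at day 8 and -0.06 ± 0.05 at day 14, close to 1 SD of the libraries. The contrasts against day 0 share the 3 day-0 libraries and are not independent of each other.

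On the TMM scale, which sets library sizes on the assumption that most guides do not change, the median NO_CURRENT guide stood at 0.53 ± 0.02 log2 units above day 0 by day 14 in DMSO, and the median OR guide at -0.19 ± 0.08. The median over all guides stood at -0.36 ± 0.02, so 0 on this scale was not the level of the typical guide. Scaling by library totals or by the sum of NO_CURRENT counts would shift every one of these log2 changes by -1.14 or -1.24, and in vemurafenib at day 14 by -1.74 or -1.73. The difference between the sets does not depend on that choice. Other targeted guides lay lower than OR guides, at -0.92 ± 0.01 relative to NO_CURRENT, the families used in few tissues at -0.70 ± 0.05, and ribosomal protein guides at -3.86 ± 0.22.

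The share of all reads held by OR guides hardly moved, although the median guide did. It was 2.05% at day 0, 2.07 ± 0.07% and 2.02 ± 0.16% in DMSO at days 8 and 14, and 2.05 ± 0.07% and 1.97 ± 0.26% in vemurafenib. For NO_CURRENT guides it was 3.45% at day 0 and 3.70 ± 0.06% and 3.41 ± 0.13% at day 14 in DMSO and vemurafenib. The sum over OR guides thus moved by less than the spread between libraries.

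The drift followed the starting level of a guide. In DMSO at day 14, the 121 OR guides under 4 CPM at day 0 had a median log2 change of -2.96 ± 1.52, and the 337 between 4 and 8 CPM one of -1.04 ± 0.13. The 568 OR guides between 8 and 16 CPM stood at -0.21 ± 0.01, the 395 between 16 and 32 CPM at 0.34 ± 0.08, and the 70 between 32 and 64 CPM at 0.59 ± 0.09. Each step up in day-0 level thus came with a higher median. The day-0 libraries serve both to sort the guides and as the reference of the change, so the values are a description.

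NO_CURRENT guides also stood higher the higher they began, and at matched level the sets were close in some ranges and apart in others. NO_CURRENT guides between 16 and 32 CPM stood at 0.37 ± 0.01 (323 guides) and those between 32 and 64 CPM at 0.67 ± 0.02 (545 guides), within 1 SD of the OR values. Between 8 and 16 CPM, 68 NO_CURRENT guides gave -0.39 ± 0.32, lower than the OR value by less than its SD. Between 4 and 8 CPM, 23 NO_CURRENT guides stood at -0.54 ± 0.47, above the OR guides by just over that SD, and in vemurafenib at day 14 those between 32 and 64 CPM stood at 0.74 ± 0.09 against 0.49 ± 0.11 for OR guides. At day 8 in DMSO, NO_CURRENT guides lay above OR guides without overlap of the libraries between 4 and 8 CPM (0.10 ± 0.16 against -0.37 ± 0.03) and between 16 and 32 CPM (0.29 ± 0.01 against 0.21 ± 0.02). In vemurafenib at day 8 they did so between 32 and 64 CPM (0.41 ± 0.05 against 0.26 ± 0.09). In the lowest range only 11 NO_CURRENT guides were found, too few to compare. Other targeted guides under 4 CPM stood at -3.82 ± 0.42, within the wide spread of the OR value, and lay at 0.27 ± 0.02 between 16 and 32 CPM.

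When NO_CURRENT guides were weighted to the day-0 levels of the OR guides, the difference between the sets shrank to the spread between libraries. The drift was then -0.12 ± 0.17 and 0.034 ± 0.23 in DMSO at days 8 and 14, and -0.10 ± 0.11 and 0.0068 ± 0.21 in vemurafenib. At day 14 in DMSO the weighted drift was 0.29, -0.14 and -0.048 in replicates 1, 2 and 3, on both sides of 0. The 6 lowest of the 10 level ranges rest on 10 to 17 NO_CURRENT guides each, so the weighted values are much less precise than the unweighted ones.

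OR guides also spread apart more than NO_CURRENT guides, by close to the same factor at every time. The width of each set was measured in each library by the robust SD of log2 changes from day 0, the median absolute deviation put on the scale of an SD. For OR guides it was 1.13 ± 0.04 at day 8 and 2.04 ± 0.09 at day 14 in DMSO, and 1.18 ± 0.04 and 2.39 ± 0.16 in vemurafenib. For NO_CURRENT guides it was 0.73 ± 0.06, 1.36 ± 0.08, 0.79 ± 0.04 and 1.63 ± 0.05 in the same order. The ratio of the sets was 1.55 ± 0.07, 1.5 ± 0.03, 1.49 ± 0.03 and 1.47 ± 0.05. Other targeted guides were wider still, at 1.77, 1.69, 1.63 and 1.60 times the NO_CURRENT width, and the families used in few tissues gave 1.37 to 1.52 times.

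With NO_CURRENT guides weighted to the OR starting levels, the ratio of widths was 0.96 ± 0.09, 1.04 ± 0.19, 0.93 ± 0.05 and 0.98 ± 0.04. Counting error alone would give the OR guides a width of 0.085 in DMSO at day 14, against the 2.04 measured. A difference between sets was present before growth as well: the width of a day-0 library against the mean of the other two was 0.51 to 0.53 for OR guides and 0.30 to 0.32 for NO_CURRENT guides.

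Changes of OR guides went together within a replicate number. Deviations of the 1491 tested OR guides from their group mean correlated at 0.85 to 0.86 between DMSO libraries of the same number at days 8 and 14, and at 0.76 between DMSO and vemurafenib libraries of the same number at day 14. Between day 0 and day 14 in vemurafenib the same-number correlation was still 0.45 to 0.49. These correlations run across guides, which share their library and its depth, and are a description. NO_CURRENT guides gave 0.80 between DMSO and vemurafenib at day 14.

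Differences between single libraries gave the same picture. A vemurafenib library minus the DMSO library of the same number had an OR width of 0.57 to 0.65 at day 8 and 1.32 to 1.45 at day 14. Minus a DMSO library of another number, the width was 1.60 to 1.74 and 2.79 to 3.28. The ranges did not overlap at either time. Between replicates of 1 group, OR levels correlated at 0.81 to 0.83 at day 0, 0.35 to 0.42 in DMSO at day 14 and 0.30 to 0.39 in vemurafenib at day 14, on the log2 scale.

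Reads of the OR set became concentrated in few guides. The top 1% of OR guides (15 guides) held 3.38 ± 0.14% of OR reads at day 0. They held 6.50 ± 0.80% and 15.1 ± 3.1% in DMSO at days 8 and 14, and 8.36 ± 0.89% and 26.6 ± 3.0% in vemurafenib. The effective number of OR guides, the number of equally abundant guides that would give the same sum of squared shares, fell from 1022 at day 0 to 304 ± 68 in DMSO and 126 ± 27 in vemurafenib at day 14. As a share of the set this was 68.3%, 20.3% and 8.43%, against 83.6%, 34.6% and 18.2% for NO_CURRENT guides.

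At the other end, OR guides were lost from libraries. Guides at 0 counts numbered 2 to 5 at day 0, 23 to 26 in DMSO and 19 to 26 in vemurafenib at day 8. At day 14 they numbered 79 to 83 in DMSO and 98 to 108 in vemurafenib, on average 5.39% and 6.91% of OR guides. The families used in few tissues gave 4.11% and 6.09%, and NO_CURRENT guides, which began at a higher level, 0.967% and 1.13%. A count of 0 allows up to 3 counts, or 0.0342 to 0.0628 CPM in these libraries. Of the 1488 OR guides with at least 10 counts in each day-0 library, 162 were at 0 in at least 1 DMSO library at day 14 but only 7 in all 3. In vemurafenib the numbers were 224 and 9. Of 996 NO_CURRENT guides with such day-0 counts, the numbers were 12 and 1 in DMSO and 15 and 2 in vemurafenib.

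Losses were shared between libraries of the same number more than between others. Of the OR guides at 0 in a DMSO library at day 14, 54.2% to 68.5% were also at 0 in the vemurafenib library of that number, and these were 38.6% to 55.6% of the guides lost there. With vemurafenib libraries of another number the overlap was 27.6% to 35.6% of the DMSO losses and 20.8% to 27.8% of the vemurafenib losses.

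Large changes were mostly found in a single library. By day 14 in DMSO, 198 OR guides (13.3%) had risen at least 8-fold in some library on the TMM scale, the same share as of all guides (13.3%), of which 176 did so in 1 library, 21 in 2 and 1 in all 3. An 8-fold fall was seen for 360 OR guides in 1 library, 110 in 2 and 16 in all 3, or 32.6% of OR guides beside 38.2% of all guides. In 60 of 1491 OR guides, 1 library rose and another fell by this much, near the share of all guides (3333 of 77158). Of 997 NO_CURRENT guides, 5 did so. Vemurafenib at day 14 gave 239, 35 and 5 rises and 435, 139 and 20 falls. Both were seen in 100 OR guides, again near the share of all guides (5058 guides), and in 12 NO_CURRENT guides. The rises were 18.7% of OR guides and 20% of all guides, and the falls 39.8% and 44.1%.

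The leading OR guide of each day-14 vemurafenib library was followed across replicates. Each was chosen by its level in that library, so lower levels in the other vemurafenib libraries follow in part from the choice. The DMSO libraries did not enter the choice. OR2B6_4 stood at 1060 CPM in vemurafenib replicate 1 but at 3.17 and 0.841 CPM in replicates 2 and 3, from 31.5, 19.2 and 15.5 CPM at day 0. In DMSO at day 14 it stood at 481, 10.6 and 1.35 CPM. Its rise was therefore seen in replicate 1 with and without the drug and in no other replicate.

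OR1J2_1 led replicate 2, with 0.419, 603 and 22.8 CPM in the vemurafenib libraries at day 14 and 2.77, 269 and 63.2 CPM in DMSO. OR51L1_1 led replicate 3, with 1.49, 18.8 and 916 CPM in vemurafenib and 2.20, 12.4 and 116 CPM in DMSO. Its day-0 values were 2.37, 4.09 and 11.4 CPM, highest in the same replicate. OR1J2_1, at 16.4, 29.4 and 23.8 CPM, and OR2B6_4 were likewise highest at day 0 in the replicate they led. None of these 3 guides passed the test of vemurafenib against DMSO (edgeR adjusted p = 1 for each).

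The leading NO_CURRENT guides of the same libraries, named after their values were seen, were chosen in the same way. NO_CURRENT_449 led replicate 1 but was high in replicate 2 as well. It stood at 1364, 1252 and 26.4 CPM in vemurafenib and 486, 435 and 40.5 CPM in DMSO at day 14. NO_CURRENT_762 led replicate 2, with 169, 1776 and 9.92 CPM in vemurafenib and 188, 1184 and 21.1 CPM in DMSO. It was also above its day-0 level of 69.2 CPM in replicate 1. NO_CURRENT_241 led replicate 3, with 14.9, 6.63 and 935 CPM in vemurafenib and 33.3, 14.7 and 249 CPM in DMSO. Each of these NO_CURRENT guides was highest at day 0 in the replicate it led.

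No single OR guide passed the guide test in any of the 6 contrasts. Counts were tested with edgeR's quasi-likelihood method, and p-values were adjusted over all 77158 tested guides. This method compares fitted mean counts of the groups, while drift and gene scores use log values, so their directions can differ. In DMSO at day 14 against day 0, the median edgeR log2 change over OR guides was 0.43, beside the -0.19 given above for log values. In DMSO at day 14 against day 0, 0 OR guides were higher and 0 lower (0% of all tested guides in each direction), while 82 OR guides were higher and 27 lower at an unadjusted p under 0.05, 7.31% of the set, against 9.88% of all guides and 11.7% of NO_CURRENT guides. In vemurafenib at day 14 against day 0 the counts were again 0 and 0 (0% in each direction over all guides), with 143 and 65 at an unadjusted p under 0.05, 14.0% of the set against 16.8% of all guides. For vemurafenib against DMSO at day 14 they were 0 and 0 (0%), with 10 and 28 unadjusted (2.55% of OR guides, 3.23% of all guides), and at day 8 also 0 and 0 (0%), with 0 unadjusted; DESeq2 called 0 there as well. At day 8 against day 0, 0.00259% of all guides were higher in either medium, none of them OR or NO_CURRENT guides. At an unadjusted p under 0.05, 5 OR guides were higher and 2 lower in DMSO (0.469% of OR guides, 1.22% of all guides). In vemurafenib 7 of the 1491 OR guides were higher and 2 lower.

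These counts rest on the fit. With the replicate number as a block, 1 OR guide was higher in DMSO at day 14 against day 0 (0.11% of all guides were called). In vemurafenib 31 were higher and 16 lower (3.15% of OR guides, 4.22% of all guides). Of 997 NO_CURRENT guides, 49 were called there in either direction, more per guide than of OR guides. DESeq2 called 46 OR guides (36 higher) in DMSO and 139 (105 higher) in vemurafenib at day 14 against day 0, and 5 (1 higher) for vemurafenib against DMSO. These were 3.09%, 9.32% and 0.335% of OR guides, beside 4.45%, 11.8% and 0.358% of all guides. Of the 997 NO_CURRENT guides it called 55, 220 and 4, in the contrasts against day 0 more per guide than of the 1491 OR guides. Scaling by library totals gave 115 OR calls in vemurafenib at day 14 against day 0, of which 2 were higher (7.71% of OR guides, 8.93% of all guides). The OR shares were below those of all guides by DESeq2 against day 0, and in vemurafenib with the block or library totals. For vemurafenib against DMSO by DESeq2 (5 OR guides) and for the block in DMSO (1 OR guide), the OR share was near that of all guides.

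The OR guides with the lowest p did move in 1 direction in every library. OR2F1_4 stood at 21.0, 11.6 and 15.6 CPM at day 0 and at 257, 73.4 and 162 CPM in DMSO at day 14 (edgeR log2 change 4.48, adjusted p = 0.301, or 0.0441 with the replicate block; 3.11e-06 to 0.850 over 15 alternatives). OR52M1_3 had 45.5, 38.0 and 35.8 CPM at day 0 and 141, 129 and 131 CPM in DMSO at day 14 (log2 change 2.89, edgeR adjusted p = 0.301). The 3 libraries of each group did not overlap for either guide. OR52M1_3 passed by DESeq2 alone of 15 alternatives (adjusted p = 1.28e-21; up to 0.856 over the others).

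OR1E1_2 went from 12.4, 14.1 and 13.9 CPM to 0.586, 0.410 and 0.124 CPM in DMSO at day 14 (log2 change -4.01, edgeR adjusted p = 0.301), and OR8A1_2 from 11.5, 9.89 and 10.3 CPM to 1.17, 0.178 and 0.142 CPM (log2 change -3.26, edgeR adjusted p = 0.317). Each of these 2 also passed by DESeq2 alone (adjusted p = 0.000411 and 0.00181; up to 0.850 and 0.856 over the others). The reference guide with the lowest p, NO_CURRENT_251, went from 18.3, 17.1 and 22.8 CPM to 132, 66.0 and 98.6 CPM (log2 change 3.49, edgeR adjusted p = 0.296, or 0.0441 with the block; 1.55e-11 to 0.850 over the alternatives).

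For vemurafenib against DMSO at day 14, the OR guides with the lowest p were OR8A1_2 and OR6K2_4 upward (log2 change 2.67 and 2.01) and OR11A1_4 and OR2Z1_4 downward (log2 change -6.67 and -2.89), each with an edgeR adjusted p = 1. By DESeq2 alone, OR11A1_4 and OR2Z1_4 passed (adjusted p = 0.00475 and 0.0189; up to 1 over the other alternatives). OR2Z1_4 stood at 20.5, 76.0 and 88.3 CPM in DMSO and at 8.12, 6.40 and 1.88 CPM in vemurafenib at day 14. OR11A1_4 was listed at 0 in vemurafenib replicates 1 and 2, so its fitted change depends on the prior count and is no bound.

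Taken over the guides of a gene, few OR genes passed, and the share that fell was below that among all genes. Each gene was scored by averaging log2 CPM (TMM scale, 0.5 counts added) over its tested guides, and limma was run over 19101 genes. In DMSO at day 14 against day 0, 2 OR genes were higher (0.419% of all genes were) and 9 were lower (7.97% of all genes were), out of 374, so the number of rises was near the background. In vemurafenib at day 14 against day 0, 3 were higher (1.01% of all genes) and 23 lower (11.2% of all genes). No OR gene passed at day 8 against day 0 (0.0105% of all genes higher and 0.524% lower in DMSO, 0.0105% and 0.204% in vemurafenib). At an unadjusted p under 0.05 there were 9 and 4 OR genes, beside 6.28% and 4.99% of all genes. For vemurafenib against DMSO no gene of any kind passed in this fit, which leaves out the replicate number (0%). At an unadjusted p under 0.05 there were 0 OR genes at day 8 and 7 at day 14, the latter beside 3.05% of all genes. With the replicate block 5 of 19101 genes passed at day 14, 0 of them OR genes. By robust rank aggregation 5 genes passed at day 8, again 0 of them OR genes. The median score change over OR genes in DMSO at day 14 was -0.43, against -0.65 over all genes.

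The number of OR genes called depended on the fit. With the replicate block it rose to 12 higher and 70 lower in DMSO at day 14 against day 0 (3.2% and 26% of all genes, 3.21% and 18.7% of OR genes). In vemurafenib it rose to 18 higher and 103 lower (4.21% and 33.9% of all genes, 4.81% and 27.5% of OR genes). The shares that rose were thus near those of all genes, and the shares that fell below them. At day 8 the block called 2 OR genes in each medium, beside 657 of 19101 genes in DMSO and 387 in vemurafenib. Scaling by library totals gave 0 higher and 180 lower in DMSO (48.1% of OR genes, 55.8% of all genes lower), and 0 higher and 305 lower in vemurafenib (81.6% and 85.2%), while robust rank aggregation called no OR gene. Over all 19101 genes, rank aggregation called 29 in DMSO and 10 in vemurafenib. Leaving out day-0 replicate 1, 2 or 3 left 2, 3 and 1 OR genes in DMSO and 3, 4 and 4 in vemurafenib. Over all genes the same steps left 561, 593 and 570 in DMSO and 596, 608 and 618 in vemurafenib. With all libraries, 1603 and 2339 of all genes were called.

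OR7C2 was the clearest rise. Its 4 guides summed to 121, 125 and 117 CPM at day 0, to 419, 239 and 156 CPM in DMSO and to 1066, 379 and 163 CPM in vemurafenib at day 14. All day-14 values exceeded all day-0 values, with replicate 1 highest each time. Guides 1 to 4 changed by 0.57, 2.30, 1.63 and 1.94 in DMSO, and by 0.38, 2.91, 2.71 and 2.55 in vemurafenib, on the log2 scale. Guide 2 alone held 301 of the 388 CPM of the gene in vemurafenib replicate 1 at day 8. The gene score rose by 1.61 ± 0.32 (SE, n = 3 libraries per group, limma adjusted p = 0.00689) in DMSO and by 2.14 ± 0.32 in vemurafenib (limma adjusted p = 0.00192). On the scale of NO_CURRENT counts the change in DMSO was 0.37 and did not pass (limma adjusted p = 0.264; 4.33e-05 to 0.470 over 12 alternatives). In vemurafenib it was 0.41 on that scale and did not pass either (limma adjusted p = 0.199; 6.1e-06 to 0.243 over 12 alternatives).

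OR4C11 passed on the TMM scale but turned with the other scalings. Its summed level was 152, 155 and 144 CPM at day 0 and 219, 116 and 132 CPM in DMSO at day 14, so the plain CPM values overlapped. The TMM score rose by 1.07 ± 0.30 (limma adjusted p = 0.0419), but with library totals the change was -0.073 and with NO_CURRENT counts -0.17. OR52R1, the next by p, did not pass (0.93 ± 0.37, limma adjusted p = 0.137).

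The 9 OR genes that fell in DMSO were OR2M2, OR6X1, OR4X2, OR4F17, OR2L2, OR5F1, OR2D3, OR51A7 and OR51V1. Their score changes ran from -1.64 for OR5F1 to -3.31 for OR4F17 (limma adjusted p from 0.00994 to 0.041). All 9 stayed negative under the scalings, filter, block and guide summary tried. All 9 lost the call with the median over guides in place of the mean, which called 2 other OR genes, and under robust rank aggregation, where the adjusted p ran from 0.396 to 1.

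OR6X1 fell with all 4 guides. Its sum went from 24.8, 24.4 and 25.0 CPM to 2.04, 4.93 and 4.75 CPM in DMSO and 1.80, 1.58 and 3.23 CPM in vemurafenib at day 14 (score change -2.55 ± 0.55 in DMSO, limma adjusted p = 0.0113). OR51A7 went from 39.7, 43.0 and 48.9 CPM to 8.16, 8.56 and 9.38 CPM in DMSO (-1.69 ± 0.47, limma adjusted p = 0.04), and OR51V1 from 19.5, 20.0 and 19.9 CPM to 2.69, 4.07 and 5.18 CPM (-2.65 ± 0.75, limma adjusted p = 0.041). The groups did not overlap in summed CPM for any of these 3 genes.

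Other falls rested on part of the guides or libraries. OR2D3 fell in score by 2.37 ± 0.66 on the log2 scale, while guide 1 changed by 0.91 and guide 2 by -6.31, and the sum in DMSO replicate 2 (39.2 CPM) exceeded all day-0 sums (31.5, 30.5 and 26.4 CPM). OR4X2 went from 29.7, 26.2 and 27.4 CPM to 6.71, 34.8 and 15.5 CPM. OR5F1 changed by -4.40 with guide 3 but by -0.38 to -1.0 with the others. A mean of log values and a sum of CPM thus gave different orders for these genes.

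The OR genes called lay at the ends of the range of starting level. Of the 9 that fell in DMSO, 7 were among the 94 OR genes with the lowest summed day-0 level (6.49 to 36.3 CPM) and 2 among the next 93. Both that rose were among the 94 with the highest (68.4 to 150 CPM). With the replicate block the numbers that fell, over the 4 level groups from lowest to highest, were 41, 19, 6 and 4, and those that rose 0, 1, 3 and 8. The day-0 values enter both the sorting and the change, and the part of starting level in the calls was not tested otherwise.

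Among the OR genes called in vemurafenib at day 14 against day 0, OR2M2 had the lowest p, with sums of 17.1, 18.9 and 19.4 CPM at day 0 and 1.70, 0.769 and 2.36 CPM in vemurafenib (score change -4.27 ± 0.60 over its 3 tested guides, limma adjusted p = 0.00128). OR9Q2, like OR2M2 in this contrast chosen after its values were seen, was higher by 1.07 ± 0.28 in score on the TMM scale (limma adjusted p = 0.0247), while its sums of 75.1, 60.9 and 143 CPM overlapped the 104, 96.1 and 106 CPM of day 0. With library totals its change turned to -0.67 and passed as lower (limma adjusted p = 0.0492; 0.00117 to 0.873 over 12 alternatives), and with NO_CURRENT counts it was -0.65. OR4C11 turned likewise in this contrast, from 1.29 to -0.45 and -0.44. Without day-0 replicate 1, 2 or 3, neither passed.

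Set against DMSO at day 14, the OR genes with the lowest p in vemurafenib did not pass. OR10P1 stood at 32.8, 52 and 26.7 CPM in DMSO and at 20.5, 33.9 and 10.8 CPM in vemurafenib (-1.39 ± 0.39, limma adjusted p = 1). OR4K13 stood at 21.8, 27.1 and 5.66 CPM in DMSO and 6.82, 4.63 and 3.07 CPM in vemurafenib (-1.80 ± 0.58). OR5B17 changed by -1.93 ± 0.68, and upward OR2T5 by 1.08 ± 0.58, OR8U1 by 1.02 ± 0.59 and OR7C2 by 0.53 ± 0.32, each with a limma adjusted p = 1.

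OR51E1 and OR51E2 are OR genes known for use outside the nose, in the prostate among other tissues. The 4 OR51E1 guides summed to 99.5, 103 and 102 CPM at day 0, 76.9, 34.2 and 55.9 CPM in DMSO and 46.8, 31.5 and 45.3 CPM in vemurafenib at day 14. On the TMM scale the score change in DMSO was -0.15 ± 0.37 and did not pass (limma adjusted p = 0.845), but on the scale of library totals it was -1.30 and passed (limma adjusted p = 0.0129; 0.00879 to 1 over 12 alternatives), as 180 of the 374 OR genes did there. Against DMSO, vemurafenib changed it by 0.21 ± 0.37.

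OR51E2 summed to 33.9, 38.8 and 42.5 CPM at day 0, 52.4, 36.2 and 53.1 CPM in DMSO and 70.6, 17.2 and 16.6 CPM in vemurafenib at day 14. Its score changed by 0.01 ± 0.48 in DMSO (limma adjusted p = 0.993) and by -0.71 ± 0.48 in vemurafenib against DMSO (limma adjusted p = 1). Guide 2 made up most of the sum in replicate 1, at 43.1 CPM in DMSO and 63.7 CPM in vemurafenib, against 0.182 to 0.815 CPM in the other day-14 libraries. Guide 3 made up most of the sum in the other DMSO libraries, at 31.2 and 42.9 CPM, against 6.06 CPM in replicate 1.

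Guides of the same OR gene varied nearly as much as guides of different ones. The share of variance in guide log2 changes between genes, an intraclass correlation over the mean of 3 libraries, was 0.076 for OR guides in DMSO at day 14, 0.209 for other targeted guides and 0.020 for the families used in few tissues. In vemurafenib against DMSO at day 14 it was -0.033 for OR guides. These are descriptions over guides, with no test.

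By class, guides against the 51 class I genes had a day-0 median of 13.3 CPM and those against the 323 class II genes 11.3 CPM. The class I median change in DMSO at day 14 was 0.06, 0.14 and -0.31 in replicates 1, 2 and 3, and the class II median -0.13, -0.24 and -0.26. Class I was higher in 2 of the 3 libraries. Relative to all OR guides the classes stood at 0.15 ± 0.18 and -0.03 ± 0.03, differences within 1 SD of the libraries.

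Of 16 clusters of at least 8 neighbouring OR genes, which hold 330 of the genes, the one from OR6X1 to OR8A1 (21 genes, 84 guides) had the lowest median in DMSO at day 14, at -0.50, -0.69 and -0.47. It was below all OR guides in 3 of 3 libraries (by -0.37 ± 0.15) and, in vemurafenib, by -0.54 ± 0.35. Its day-0 median of 9.02 CPM was below that of the set. The cluster from OR9A2 to OR2A1 had the highest, at 0.15, -0.11 and 0.34, above the OR median by 0.31 ± 0.27. The largest cluster, OR52B4 to OR10A3 with 63 genes, lay above it in 3 of 3 libraries by 0.15 ± 0.08.

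Of 12 receptor families with enough members, OR8 was lowest in DMSO at day 14 (-0.20, -0.81 and -0.41) and OR52 highest (0.08, 0.67 and -0.21). By day 14 in vemurafenib the OR8 median was 0.49 ± 0.11 below that of all OR guides and the OR52 median 0.40 ± 0.33 above it. Since the lowest and highest of several groups were singled out by value, these are given with no test.

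Beyond the receptors, none of 20 genes of olfactory signalling passed the gene test in either direction in any of the 6 contrasts (limma). At an unadjusted p under 0.05 there were 7 in DMSO and 5 in vemurafenib at day 14 against day 0, and 0 in the other contrasts, beside 24.2% and 29.3% of all genes at day 14 against day 0. The score of GNAL in DMSO at day 14 changed by -1.23 ± 1.69, that of ADCY3 by -0.01 ± 0.59 and that of CNGA2, a channel subunit, by 0.11 ± 0.60. CNGA4, another channel subunit, had the lowest p in the list (-2.13 ± 0.70, limma adjusted p = 0.0756). The median over the 20 genes was -0.64, beside -0.65 over all genes.

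A comparison of the same kind exists in the other library screened in MED12 knockout cells, an epigenetic library with 267 guides against AAVS1, a locus whose cutting is held to be harmless, and 83 guides named CTRL. There the sets began close together, with day-0 medians of 114 and 148 CPM. The AAVS1 median drifted by -0.17 ± 0.05 at day 8 and -0.17 ± 0.25 at day 14 in DMSO relative to CTRL, and by -0.19 ± 0.04 and -0.21 ± 0.18 in vemurafenib. The DMSO values at day 14 were -0.36, 0.11 and -0.26, so their sign was not the same in all replicates, as was the case for the level-weighted OR drift at that time. In the other contrasts against day 0 the AAVS1 values were below 0 in every library. They were -0.19, -0.12 and -0.21 in DMSO at day 8. In vemurafenib they were -0.24, -0.15 and -0.17 at day 8 and -0.39, -0.023 and -0.22 at day 14.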

How the data were processed

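Per guide, the authors deposited whole-number counts of reads, unnormalized, made with bcl2fastq, HISAT2 and HTSeq per the submitters' processing notes; no source used here states versions or the guide reference. Guide sequences were not used here. Counts were tested per guide in R 4.3.3 with edgeR 4.0.16 (TMM, filterByExpr with minimum count 10 and total 15, 1 mean per group over all 15 libraries), and gene scores of at least 3 tested guides with limma 3.58.1 (trend), all 2-sided, with Benjamini-Hochberg adjustment over all guides or genes and a threshold of 0.05. DESeq2 1.42.0, a replicate block, other scalings, filters, priors and left-out libraries were alternatives. Same-number libraries deviated together in every pair of groups (lowest correlation over all guides 0.46, between day 0 and vemurafenib day 14), so numbers pair the libraries. CPM are per library total; drift uses 0.5 added counts. Scripts were tested on simulated data. Members, lists and tests were chosen with earlier results of these data known. Named by rule, in DMSO at day 14 against day 0 and in vemurafenib against DMSO at day 14, were OR genes past the threshold whose libraries do not overlap in score (up to 10 per direction by adjusted p, filled to 3 by lowest p as not passing), up to 5 OR and 3 NO_CURRENT guides per direction (2 by lowest p where none passed), OR51E1, OR51E2, and the OR guide with the highest CPM in each day-14 vemurafenib library.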

Additional observations from a re-analysis of the deposited data

How the results depend on the processing

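Limits: 3 libraries per group, replicate numbers whose libraries deviate together, and few NO_CURRENT guides at low starting levels bound what these sets can show. Calls against day 0 depend on the scaling, and the cause of each change below was not tested. Leaving out OR genes with a near-identical OR protein was not run, for calls or drift, since it needs protein sequences. Guide calls on OR guides were 0 in all 6 contrasts with relative log expression scaling, without the filter, with a day-0 count of at least 30, with only the groups compared and without each library. DESeq2 gave 1 and 46 in DMSO and 2 and 139 in vemurafenib at days 8 and 14 against day 0, and 5 for vemurafenib against DMSO at day 14. Over all 77158 guides it gave 102 and 3430, 99 and 9128, and 276 in the same order. In vemurafenib at day 14 against day 0, total, NO_CURRENT and OR scaling gave 115, 109 and 99, beside 6889, 6558 and 5650 of all guides. The replicate block gave 1 in DMSO and 47 in vemurafenib at day 14, beside 85 and 3253 of all guides. Calls of OR genes in DMSO at day 14, 11 as reported, were 180 with total scaling, 201 with NO_CURRENT scaling, 2 with the median over guides (0 of them among the 11), 82 with the replicate block (all 11 among them) and 0 by rank aggregation. In vemurafenib at day 14 the 26 became 305, 300, 11 (6 of them among the 26), 121 and 0. Over all 19101 genes, the 1603 called in DMSO became 10654, 11769, 645, 5577 and 29 under the same settings. The 2339 called in vemurafenib became 16275, 16151, 1103, 7274 and 10. At day 8 the block gave 2 in each medium, beside 657 and 387 of all 19101 genes in DMSO and vemurafenib. Without 1 library the counts of OR genes at day 14 ran from 1 to 14 in DMSO and from 3 to 32 in vemurafenib. Over all genes they ran from 561 to 1523 and from 596 to 2071. OR4C11 turned to -0.073 with total and -0.17 with NO_CURRENT scaling in DMSO and to -0.45 and -0.44 in vemurafenib, and OR9Q2 to -0.67 and -0.65 in vemurafenib. Drift with the mean over guides was -0.56 and -1.06 in DMSO, -0.53 and -1.18 in vemurafenib at days 8 and 14, and -0.12 for vemurafenib against DMSO at day 14. With NO_CURRENT guides weighted it was -0.12 and 0.034 in DMSO, -0.10 and 0.0068 in vemurafenib, and -0.026 and -0.00022 for vemurafenib against DMSO. A prior of 5 counts gave -0.85 in vemurafenib at day 14. Without 1 library, drift ran from -0.91 to -0.88 in vemurafenib at day 14 and from -0.13 to -0.011 against DMSO at day 14. With the replicate block, the DMSO library of the same number as reference (chosen after seeing the data), drift against DMSO was 0.0032 at day 8 and -0.045 at day 14. The ratio of widths with the plain SD was 1.79 and 1.69 in DMSO and 1.73 and 1.52 in vemurafenib at days 8 and 14, and with weighted NO_CURRENT guides 0.96, 1.04, 0.93 and 0.98. A prior of 5 counts gave 1.47 in DMSO and 1.39 in vemurafenib at day 14. Without 1 library it ran from 1.47 to 1.55 in vemurafenib at day 8. By mean CPM the day-0 ratio was 2.52. The other alternatives to these values stayed within 1 SD of the libraries, or within 1.5 times the count.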
